A study of Paralichthys olivaceus with 6 samples.

Results

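The 78 genes described here are the Rab, Arf and Arl small GTPases and Tbc1d genes of the olive flounder hindbrain, with some of their partners. They were chosen by identifier, as those that start with rab, arf or arl and a digit or with tbc1d, leaving out rab3a, rab3b, rab3c and rab3d, and they are 78 of the 24395 genes counted. By name they were 27 Rab GTPases, 3 Arf GTPases, 12 Arl GTPases, 24 Tbc1d genes and 12 other partners, among them Rab11 effectors, the Rab3 GTPase-activating complex and Arl-interacting proteins. Another 48 relatives carry only a LOC number in the count tables and were named from RefSeq, so they fall outside the rule and are described separately.

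Small GTPases of the Rab and Arf families are the identity tags of cell membranes. Each is switched on by an exchange factor that loads GTP and switched off by a GTPase-activating protein, and in the GTP form it recruits effectors that bud, move, tether or fuse vesicles. Most Tbc1d proteins carry the TBC domain, which makes Rabs hydrolyse GTP. In neurons these proteins carry cargo between cell body, axon and synapse, recycle receptors, move lysosomes and supply primary cilia.

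RNA-seq counts were compared between 3 bold-titled libraries and 3 shy-titled libraries, all from the hindbrain of olive flounder (Paralichthys olivaceus) kept in one facility, selected for a bold or a shy personality, with no treatment named in the labels. The personality characteristic in the labels gives the opposite word for all 6 libraries, so the groups are fixed but every direction given below turns round if that characteristic is the correct label. Age and sex are not given, and the labels mention RNA of 6 individuals without saying whether fish were pooled, so a p-value here speaks of the spread among these libraries alone. In bulk tissue, fewer cells of a type and less RNA per cell cannot be told apart.

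Totals lay between 18081694 and 22805563 counts, and 3 counts corresponded to 0.132 to 0.174 CPM (counts scaled to a common library total, with TMM factors to make libraries comparable). That floor covers counting error only. Of 11 hindbrain position genes, 9 had a read but only 3 reached a mean of 1 CPM (mafba, mafbb and egr2), and hoxb2 and hoxb4 had none. Of 9 forebrain and midbrain position genes 5 did, with six3 at 46.0 CPM and nkx2-1 at 29.4 CPM. Titled bold 2 had the lowest mean correlation with the other libraries, 0.961 against 0.971 to 0.973 (Pearson's r over tested genes on log2 CPM). Results for the 78 genes are given with and without that library where it matters. Values after ± are SDs for CPM and SEs for log2 folds. CPM values are not divided by transcript length, so they compare libraries for 1 gene and do not rank genes.

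The membrane-traffic genes were almost all detected. Every one of the 78 had reads, 76 had a read in each of the 6 libraries, and 67 had a mean of at least 10 CPM. The low-count filter kept 74 of the 78. The 4 genes left out of the test were rab25, arl6, arl13a and arl14, with 31, 21, 26 and 16 reads in all 6 libraries together. Rab25 is known as an epithelial relative of Rab11. Together the 78 genes took between 0.512% and 0.551% of each library's counts.

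Among the Rabs of the endoplasmic reticulum and Golgi, rab41, whose human counterpart is a Golgi Rab related to Rab6, had 402, 564 and 487 CPM in the 3 bold-titled libraries, against 424, 375 and 409 CPM in the 3 titled shy. The highest 2 values were titled bold 2 and 3, and the groups overlapped. Rab30, another Golgi Rab, had 304, 373 and 348 CPM in bold-titled libraries and 302, 328 and 309 CPM in shy-titled libraries. Rab2a, which acts between the endoplasmic reticulum and the Golgi, was steadier, with 196, 161 and 189 CPM in bold-titled libraries and 186, 189 and 189 CPM in shy-titled libraries. Its lowest value was titled bold 2, the library in which most other Rabs were high.

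The Golgi and autophagy Rabs rab33a and rab33b were both highest in titled bold 2, with overlapping groups, but differed in titled shy 3. Rab33a, known from anterograde axonal vesicles in rat neurons, had 105, 138 and 102 CPM in bold-titled libraries and 104, 98.9 and 112 CPM in shy-titled libraries. Rab33b had 9.51, 12.8 and 10.6 CPM in bold-titled libraries and 9.61, 10.9 and 5.02 CPM in shy-titled libraries, so that titled shy 3 stood below the other 5 libraries. Of the reads of both genes together, rab33a took 90.1% to 95.7% per library, a share of reads and not of molecules.

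Of the early endosome Rabs, rab5c, which drives endosome fusion, varied little, at 64.0, 72.4 and 69.1 CPM in bold-titled libraries against 59.2, 64.6 and 64.2 CPM in shy-titled libraries. Rab4a, which returns receptors quickly to the surface, had 58.9, 74.2 and 61.6 CPM in bold-titled libraries and 62.2, 61.3 and 55.7 CPM in shy-titled libraries. Rab21, which accompanies integrins through endosomes, was highest in titled shy 3 at 54.5 CPM and lay between 36.04 and 43.8 CPM in the other libraries. Rab20, rab22a and rab31, also endosomal, had overlapping groups and log2 folds between -0.06 and 0.15.

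The recycling and exocytic Rabs had overlapping groups too. Rab10, which carries exocytic and recycling vesicles, had 215, 280 and 230 CPM in bold-titled libraries and 212, 230 and 254 CPM in shy-titled libraries. Rab35, a fast-recycling Rab, had 79.1, 103 and 92.4 CPM in bold-titled libraries and 88.9, 93.0 and 96.8 CPM in shy-titled libraries. Its lowest 2 values belonged to the libraries numbered 1 of both groups. The close paralogs rab8a and rab8b, which bring membrane to cilia and dendrites, had log2 folds of -0.04 ± 0.16 and 0.06 ± 0.17, and rab8a took 54.5% to 66.7% of their joint reads.

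The 6 late endosome and lysosome-related Rabs under the rule had a median coefficient of variation of 24.96% between libraries. It was 13.2% over all 26 tested Rabs, these 6 included, a difference that was not tested. The read level had a median of 13.8 CPM for the 6 and 32.4 CPM for the 26, so the comparison is not at a like level. The 6 genes were unlike each other in their variation, with rab24 at 13.5% and rab9a at 14.3%. Rab38 and rab42 had means of only 1.20 and 2.19 CPM. The higher median variation did not extend to most LOC relatives of this site. Rab9b varied by 7.74%, rab7a by 9.25%, rab38c by 14.99%, rab42a by 15.6% and rab44 by 19.8%. Only rab36, with a mean of 3.53 CPM, varied more than that median, by 31.6%. Rab9a, which returns receptors to the trans-Golgi network, had 42.6, 61.7 and 56.2 CPM in bold-titled libraries and 44.1, 50.3 and 49.5 CPM in shy-titled libraries. Rab34, tied to lysosome position and to cilium formation in mammalian cells, had 11.3, 21.7 and 21.2 CPM in bold-titled libraries and 12.9, 21.5 and 15.8 CPM in shy-titled libraries. For both genes the lowest 2 libraries were titled bold 1 and titled shy 1. Rab32, a Rab of lysosome-related organelles and mitochondria, had 8.89, 12.3 and 13.1 CPM in bold-titled libraries and 6.08, 11.7 and 9.37 CPM in shy-titled libraries.

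Of the Rabs tied to pigment granules, rab38 and rab27a had few reads. Rab38 had 0.669, 2.498 and 1.20 CPM in bold-titled libraries and 0.837, 0.840 and 1.14 CPM in shy-titled libraries, 143 reads in all. Rab27a, which links melanosomes and secretory granules to myosin, had 1.19, 0.871 and 0.748 CPM in bold-titled libraries and 1.98, 0.884 and 0.710 CPM in shy-titled libraries, 135 reads in all. The hedgehog and cilium Rab rab23 was far from that limit, at 68.0, 81.0 and 68.5 CPM in bold-titled libraries and 64.8, 59.8 and 74.9 CPM in shy-titled libraries. Rab28, another cilium Rab, was lowest in titled bold 2, with 28.6, 19.1 and 26.1 CPM in bold-titled libraries and 25.7, 30.6 and 24.7 CPM in shy-titled libraries. The remaining tested Rabs, rab12, rab13, rab24 and rab42, had overlapping groups and log2 folds between -0.12 and 0.20.

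The 3 Arf genes under the rule were arf1, arf3 and arf4, which in mammals recruit COPI and clathrin adaptor coats at the Golgi. Arf1 had 13.1, 15.9 and 11.8 CPM in bold-titled libraries and 10.2, 13.96 and 13.1 CPM in shy-titled libraries. Arf3 was lowest in titled bold 2, with 87.9, 45.7 and 66.7 CPM in bold-titled libraries and 70.5, 68.0 and 77.0 CPM in shy-titled libraries. Arf4 had 0.335, 0.348 and 0.399 CPM in bold-titled libraries and 0.749, 0.619 and 0.757 CPM in shy-titled libraries, from 68 reads in all, so each library's value rests on a few reads. Further Arf genes carried LOC numbers, and RefSeq calls them arf2a, arf2b, arf3b, arf6a and arf6b.

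Of these Arf relatives, arf6b, for the Arf of the plasma membrane and recycling endosome, had 60.6, 63.3 and 57.2 CPM in bold-titled libraries and 61.3, 58.4 and 54.9 CPM in shy-titled libraries. Its duplicate arf6a had 24.4, 26.1 and 22.9 CPM in bold-titled libraries and 22.5, 25.4 and 20.5 CPM in shy-titled libraries. Both groups overlapped for each duplicate. Arf2b, with 363, 485 and 353 CPM in bold-titled libraries against 361, 361 and 368 CPM in shy-titled libraries, was again highest in titled bold 2.

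Arl genes, for Arf-like GTPases, included regulators of the trans-Golgi, lysosomes, tubulin and cilia. Arl1, which recruits golgin tethers, had 106, 136 and 124 CPM in bold-titled libraries and 103, 116 and 114 CPM in shy-titled libraries. Arl8b, which couples lysosomes to kinesin, had 97.4, 120 and 108 CPM in bold-titled libraries and 98.1, 98.7 and 92.2 CPM in shy-titled libraries. Arl2, a regulator of tubulin folding, had 53.9, 65.3 and 63.9 CPM in bold-titled libraries and 47.1, 54.6 and 56.4 CPM in shy-titled libraries. In all 3 genes titled bold 2 was the highest library and titled bold 3 the next, while titled bold 1 lay among the shy-titled libraries. Arl5a, also of the trans-Golgi network, had overlapping groups as well, with a log2 fold of 0.15 ± 0.17, and arl9 and arl16 had -0.22 ± 0.17 and 0.21 ± 0.23.

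Of the cilium Arls, arl3 and arl13b had enough reads to be tested. Arl3, which releases lipid-modified cargo inside cilia, had 87.5, 108 and 88.8 CPM in bold-titled libraries and 86.7, 88.3 and 92.9 CPM in shy-titled libraries. Arl13b, its exchange factor in cilia, had 37.8, 32.9 and 27.2 CPM in bold-titled libraries and 31.3, 32.8 and 36.96 CPM in shy-titled libraries. The related arl13a had at most 1.22% of the joint reads of both genes in any library. The gene with the identifier arl6, named after the Arl that assembles the BBSome coat, had 21 reads in all, while a LOC gene that RefSeq also calls arl6 had 23.3, 22.5 and 20.6 CPM in bold-titled libraries and 19.1, 14.4 and 19.2 CPM in shy-titled libraries. The groups did not overlap for that LOC gene, and its log2 fold was 0.33 ± 0.16 (edgeR adjusted p = 0.955).

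Among the partners, the Rab11 effector gene rab11fip4 alone took 20.7% of all reads of the 78 genes, between 17.9% and 23.3% per library. It had 887, 1170 and 1193 CPM in bold-titled libraries and 910, 1177 and 1257 CPM in shy-titled libraries. Titled bold 1 and titled shy 1 stood together below the other 4 libraries, and the log2 fold was -0.04 ± 0.16. Its paralog rab11fip3, which acts with Rab11 in recycling and cell division, went otherwise, with 75.8, 43.6 and 60.4 CPM in bold-titled libraries and 73.2, 61.3 and 68.0 CPM in shy-titled libraries. There titled bold 2 was the lowest library and the libraries numbered 1 the highest.

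Arl6ip1 and arl6ip5 encode membrane proteins of the endoplasmic reticulum. Arl6ip1, which shapes tubules of that organelle, had 224, 295 and 248 CPM in bold-titled libraries and 207, 228 and 226 CPM in shy-titled libraries. Arl6ip5, whose rat counterpart binds the glutamate transporter EAAC1, had 187, 233 and 228 CPM in bold-titled libraries and 170, 201 and 198 CPM in shy-titled libraries. In both genes titled bold 2 and 3 were highest, and titled bold 1 lay within the range of the shy-titled libraries. The partners arl2bp, which binds Arl2 and Arl3, arl14ep, arl6ip4, arl6ip6 and rab11fip2 had overlapping groups and log2 folds between -0.22 and 0.22.

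The Rab3 GTPase-activating complex consists of a catalytic subunit, rab3gap1, and a partner subunit, rab3gap2, and in human cells also activates Rab18. Rab3gap1 had 29.2, 21.95 and 24.2 CPM in bold-titled libraries and 34.5, 27.9 and 27.4 CPM in shy-titled libraries. Rab3gap2 was among the steadiest of the 78 genes, with 55.1, 52.2 and 48.6 CPM in bold-titled libraries and 54.8, 52.2 and 55.7 CPM in shy-titled libraries. Rab3ip, an exchange factor for Rab8, had 49.0, 54.9 and 41.8 CPM in bold-titled libraries and 45.8, 42.2 and 46.6 CPM in shy-titled libraries. The groups overlapped in all 3.

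The Tbc1d genes under the rule varied little. The median coefficient of variation over the 6 libraries was 9.40% for the 24 Tbc1d genes, against 13.2% for 26 Rab GTPases, 11.7% for 9 Arl GTPases and 16.95% for all 19755 genes tested, without a test of these differences. The median read level was 30.4 CPM for Tbc1d genes, 32.4 CPM for Rab and 33.1 CPM for Arl GTPases. It was lower over all genes tested, at 16.1 CPM, so the comparison with all genes is not at a like level. The LOC relatives tbc1d10ab, tbc1d1, tbc1d7 and tbc1d10c varied more than that Tbc1d median, by 11.7%, 13.7%, 17.4% and 23.5%. The tested Rab relatives ran from 3.63% for rab4b to 57.1% for rab3db. Tbc1d9b varied by 3.79% and tbc1d20, for a GTPase-activating protein of Rab1, by 4.87%. With rab3gap2 at 5.03% and tbc1d2b at 5.70% they were the 4 steadiest genes under the rule with a mean of at least 10 CPM. The most uneven genes at that level were tbc1d2 at 30.8%, rab34 at 27.02%, rab32 at 25.6% and arl16 at 22.999%.

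Tbc1d2, for a GTPase-activating protein of Rab7, owed its spread to 1 library. It had 11.5, 11.6 and 10.9 CPM in bold-titled libraries and 15.2, 13.3 and 4.97 CPM in shy-titled libraries, so that titled shy 3 stood apart. Its paralog tbc1d2b had 19.9, 19.4 and 19.04 CPM in bold-titled libraries and 17.7, 18.4 and 17.1 CPM in shy-titled libraries, and was low in titled shy 3 by a small margin. Tbc1d2b was 1 of the few genes whose groups did not overlap, with a log2 fold of 0.13 ± 0.13 (edgeR adjusted p = 0.955).

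Tbc1d24, a synaptic vesicle protein gene mutated in human epilepsies, had 32.4, 27.5 and 29.9 CPM in bold-titled libraries and 35.2, 29.6 and 37.6 CPM in shy-titled libraries. Tbc1d4, which controls glucose transporter vesicles in mammalian muscle and fat, had 11.2, 15.9 and 16.1 CPM in bold-titled libraries and 17.01, 14.3 and 13.4 CPM in shy-titled libraries. Tbc1d32, needed for cilia and hedgehog signalling in mice, had 11.5, 12.7 and 14.2 CPM in bold-titled libraries and 11.1, 11.3 and 11.3 CPM in shy-titled libraries. Its groups did not overlap, by a margin of titled bold 1 over titled shy 2 that was small beside the spread among the bold-titled libraries. The 4 Tbc1d genes with the most reads were tbc1d9, tbc1d8b, tbc1d9b and tbc1d10b, with log2 folds between 0.00 and 0.07. Of the other Tbc1d genes, tbc1d15 and tbc1d17, for Rab7-directed proteins that act at mitochondria in human cells, had log2 folds of 0.10 ± 0.10 and 0.07 ± 0.10. Tbc1d31, a centrosome gene with 335 reads in all, had -0.43 ± 0.38. The rest, tbc1d5, tbc1d10a, tbc1d13, tbc1d19, tbc1d22a, tbc1d22b, tbc1d23 and tbc1d25, lay between -0.17 and 0.18 with overlapping groups.

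**Figure D1:**
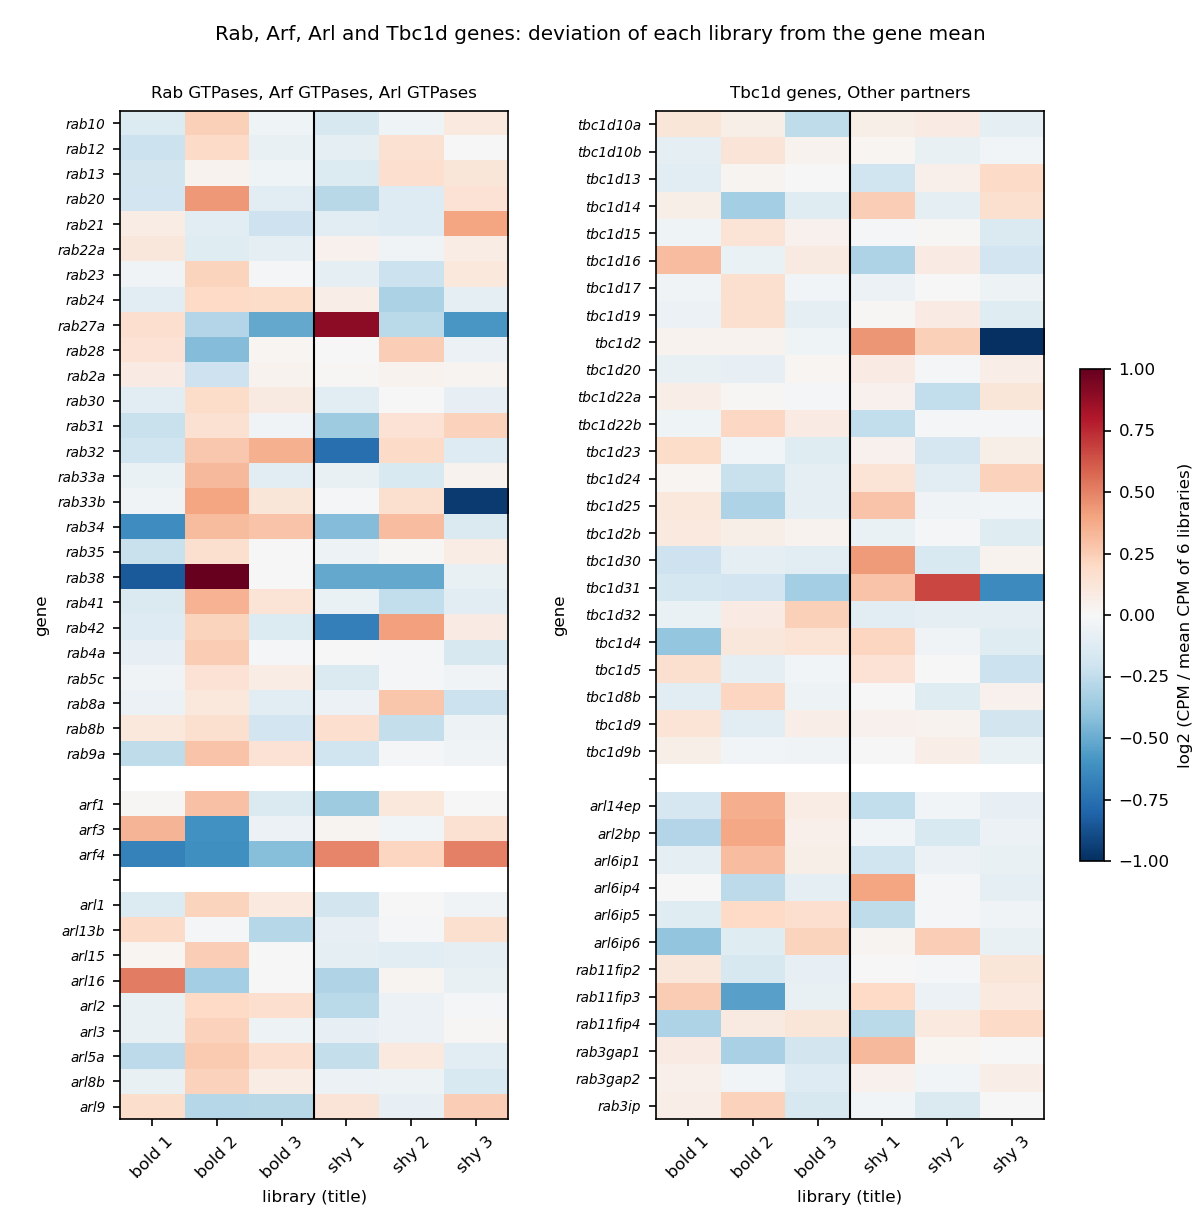
Heat map of the 74 tested genes (rows, by role) in the 6 libraries (columns, titled bold left of the line, titled shy right of it). Colour gives log2 of a library's CPM over the gene's mean of 6 libraries, with values beyond -1 or 1 drawn at that limit. Titled bold 2 is the reddest column among Rab and Arl GTPases, and tbc1d2 and rab33b are blue in titled shy 3.

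A single library stood out among the Rab and Arl GTPases under the rule. Titled bold 2 was the highest of the 6 libraries in 33 of the 74 tested genes, or 44.6%, where it was highest in 25.4% of all tested genes. It was the lowest in 14 of the 74, or 18.9%, against 29.3% of all tested genes. The median read level was 31.5 CPM for the 74 genes and 16.1 CPM over all, so this comparison is not at a like level. Among the 26 Rab GTPases titled bold 2 was highest in 15 and stood above the mean of the other 5 libraries in 21. It was highest in 6 of 9 Arl GTPases. Among the 24 Tbc1d genes it was highest in 6 (25%), near the share of all tested genes. The median deviation of titled bold 2 from the other 5 libraries, on log2 (CPM + 0.5), was 0.24 for Rab GTPases and 0.27 for Arl GTPases, but -0.32 for the 3 Arf genes, 0.03 for Tbc1d genes and -0.01 for all genes tested. Among those Arf genes, arf1 was highest in titled bold 2 and arf3 lowest, and arf4 had only 68 reads. The LOC relatives arf2a, arf2b, arf3b, arf6a and arf6b were each highest in titled bold 2. The LOC relatives of the Rabs were split. Rab11a, rab14l, rab18a, rab27b, rab42a, rab5ab, rab6ba and rab9b were highest there. Rab1ba, rab36, rab38c, rab40b, rab40c, rab4b, rab5b and rab7a were lowest there. The titled bold 2 pattern was noticed after the values were seen and was given no test.

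Summed marker levels of 2 cell types moved with that library. The summed level of 9 neuron markers was 8881 CPM in titled bold 2, against 6120 to 6608 CPM in the other 5 libraries. That sum was carried by snap25, at 5700 CPM against 3750 to 4175 CPM, and by stmn2 and stmn2a, and titled bold 2 was the highest library in 4 of the 9. Other neuron markers did not follow, since elavl3 was lowest there, at 159.8 CPM against 189 to 223 CPM, and syt1 and elavl4 were highest in the libraries numbered 1 of both groups. The summed level of 8 oligodendrocyte markers was 4360 CPM in titled bold 2, against 2243 to 2695 CPM in the others, and titled bold 2 was the highest library in 5 of the 8. Most of that rise was in mbpa, at 2393 CPM against 980 to 1244 CPM, while mpz and magl were lowest there. The summed level of 6 radial glia and astrocyte markers was lowest in that library, at 4096 CPM against 4246 to 5909 CPM. Only 2 of these 6 were lowest there, s100b and slc1a2, the latter at 99.9 CPM against 335 to 593 CPM. Gfap, fabp7a and glula lay within the range of the other libraries. The part of these cell types in the Rab and Arl values was not tested.

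**Figure D2:**
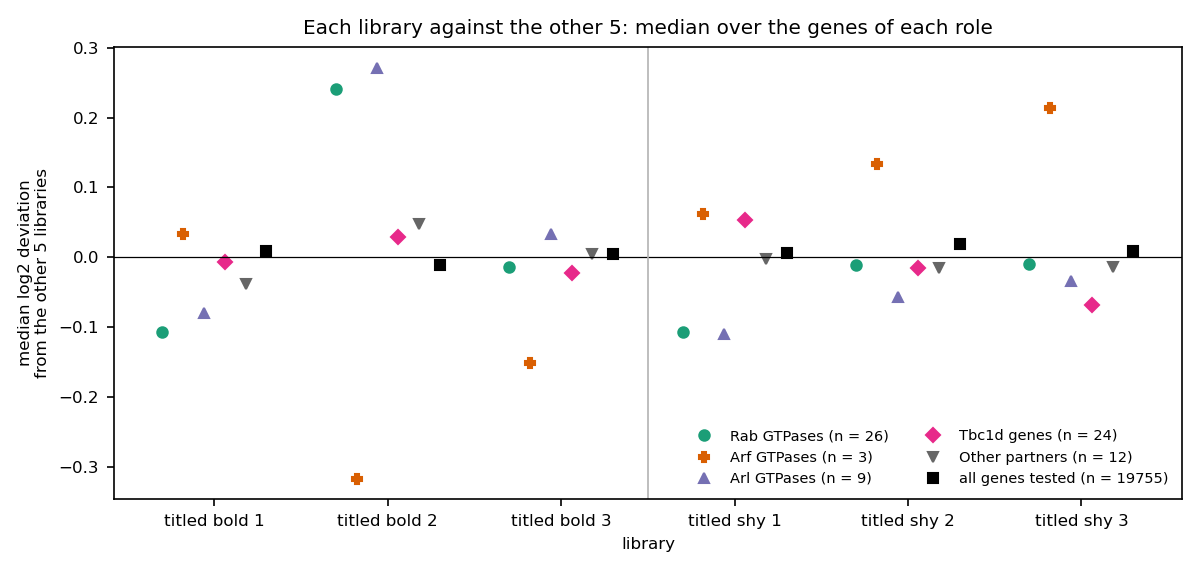
Median log2 deviation of each library (x axis) from the mean of the other 5 on log2 (CPM + 0.5) (y axis), over Rab GTPases, Arf GTPases, Arl GTPases, Tbc1d genes, other partners and all genes tested. Titled bold 2 lies at 0.24 for Rab GTPases, at 0.27 for Arl GTPases and near 0 for Tbc1d genes. It lies at -0.32 for arf1, arf3 and arf4, of which arf1 was highest in that library. Titled bold 1 and titled shy 1 both lie at -0.11 for Rab GTPases.

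The libraries numbered 1 in both groups also resembled each other. Titled bold 1 and titled shy 1 were the lowest 2 libraries in 22 of the 74 genes and the highest 2 in 6, together 37.8%, where the same held for 24.3% of all tested genes. The median read level was 31.5 CPM for the 74 genes and 16.1 CPM over all, so this comparison is not at a like level, and it was not tested. The 22 genes included rab10, rab30, rab35, rab5c, rab9a, rab11fip4, arl1, arl2 and arl3. Of the Tbc1d genes, only tbc1d13 and tbc1d22b were among the 22, and only tbc1d25 and tbc1d5 among the 6. For the libraries numbered 2 the corresponding share was 12.2% of these genes against 17.3% of all, and for those numbered 3 it was 10.8% against 10.3%. The labels do not say whether a number marks a shared batch, tank or day.

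Set against the spread of its libraries, no gene of this set passed the test between bold-titled and shy-titled libraries. With edgeR's quasi-likelihood test and Benjamini-Hochberg adjustment over all genes, 0 of the 74 tested genes were called at an adjusted p under 0.05, and over all 19755 genes the share called was 0%. DESeq2 and limma-voom also called 0 of the 74, while DESeq2 called 0.0688% of all genes for which it gave an adjusted p. It gave none for arf4, rab27a and rab38, so it could not call these. At an unadjusted p under 0.05 edgeR counted 0 of the 74, against 3.49% of all genes tested (1.74% higher and 1.75% lower in bold-titled libraries), and DESeq2 also counted 0 of them, against 3.86% of all. The smallest unadjusted p was 0.0715, and edgeR adjusted p-values lay between 0.955 and 1.000.

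The log2 folds of the 74 genes ran from -0.96 to 0.62, with a median SE of 0.15. Of the 74, 43 lay above 0 and 31 below, so 58.1% were above 0, against 48.3% of all genes tested, and their median was 0.04, against -0.01 over all genes. Their median read level was 31.5 CPM, against 16.1 CPM over all genes, so the comparison is not at a like level. Without titled bold 2, 36 of the 74 lay above 0 and 38 below. Groups did not overlap in 4 of the 74 genes (5.41%), where they did not overlap in 9.53% of all genes tested. Of those 4, arl15, tbc1d2b and tbc1d32 had higher values in bold-titled libraries, against 4.53% of all genes, and arf4 lower ones, against 5% of all genes.

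By role, the median log2 fold was 0.15 for 9 Arl GTPases, of which 7 lay above 0, and 0.09 for 26 Rab GTPases, of which 15 did. It was 0.03 for 24 Tbc1d genes, with 15 above 0, -0.05 for 12 other partners, with 5 above 0, and -0.10 for the 3 Arf genes. Without titled bold 2 the median over the 38 GTPases was 0.00, with 19 above 0 and 19 below, against 0.11 with all libraries, with 23 above and 15 below. Without it the Rab median was -0.01 and the Arl median 0.05. With all libraries, the Rab median was 0.18 for 6 of late endosomes and related organelles and 0.13 for 5 of the endoplasmic reticulum and Golgi. It was 0.03 for 6 of early endosomes and -0.02 for 5 of recycling. Without titled bold 2 the late endosome folds were 0.28 for rab32, 0.15 for rab24 and 0.04 for rab9a. They were -0.01 for rab38, -0.04 for rab34 and -0.14 for rab42. The endoplasmic reticulum and Golgi folds were then 0.24 for rab33b, 0.14 for rab41, 0.06 for rab30, 0.03 for rab2a and -0.03 for rab33a.

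Summed over each role, the groups overlapped as well. Rab GTPases summed to 2038 ± 206 CPM in bold-titled libraries and 1894 ± 50.3 CPM in shy-titled libraries (SD, n = 3 each). Arl GTPases summed to 500 ± 39.2 CPM in bold-titled libraries and 460 ± 17.5 CPM in shy-titled libraries. Tbc1d genes summed to 980 ± 9.14 CPM in bold-titled libraries and 965 ± 23.1 CPM in shy-titled libraries. For Rab and Arl GTPases the spread among bold-titled libraries was the wider one, with titled bold 2 the highest at 2251 and 543 CPM. The difference in the sum, titled bold minus titled shy, was 144 CPM for Rab GTPases and 39.6 CPM for Arl GTPases, and 38.1 and 18.4 CPM without titled bold 2.

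The gene with the smallest p was arf4, with a log2 fold of -0.96 ± 0.47, an unadjusted p of 0.0715 and an edgeR adjusted p of 0.955. Rab41 followed with 484 ± 80.8 CPM in bold-titled libraries and 403 ± 25.4 CPM in shy-titled libraries, a log2 fold of 0.27 ± 0.14. Arl6ip1 had a log2 fold of 0.21 ± 0.12, arl2 of 0.21 ± 0.12, arl8b of 0.17 ± 0.11 and arl6ip5 of 0.19 ± 0.12. In each of these 5 positive cases titled bold 2 was the highest library. Without titled bold 2 the log2 fold was 0.14 for rab41, 0.10 for arl6ip1, 0.16 for arl2, 0.09 for arl8b and 0.13 for arl6ip5. Without titled bold 1 it was 0.32 for arl6ip1, 0.31 for arl2, 0.26 for arl8b and 0.30 for arl6ip5. Tbc1d16, for a GTPase-activating protein of Rab4, had 34.9 ± 4.64 CPM in bold-titled libraries and 29.3 ± 4.18 CPM in shy-titled libraries, a log2 fold of 0.25 ± 0.15, with titled bold 1 highest, and 0.16 without that library.

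The folds below 0 in that set belonged to rab3gap1 and 3 Tbc1d genes besides arf4. Rab3gap1 had a log2 fold of -0.25 ± 0.15, and -0.13 without titled shy 1 or -0.16 without titled bold 2. Tbc1d30, for a GTPase-activating protein of Rab8 in human cells, had 15.005, 16.3 and 16.003 CPM in bold-titled libraries and 23.3, 15.6 and 17.8 CPM in shy-titled libraries, a log2 fold of -0.26 ± 0.18 that was -0.07 without titled shy 1. Tbc1d14, which in human cells acts on Rab11 endosomes that feed autophagosomes, had a log2 fold of -0.24 ± 0.17, and -0.14 without titled bold 2 or -0.16 without titled shy 1. Tbc1d24 had a log2 fold of -0.19 ± 0.13, and -0.10 without titled shy 3. Arl15 had 18.4, 21.6 and 18.2 CPM in bold-titled libraries and 16.97, 16.8 and 17.04 CPM in shy-titled libraries, a log2 fold of 0.20 ± 0.14, and 0.12 without titled bold 2. All 12 genes named here had an edgeR adjusted p of 0.955.

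**Figure D3:**
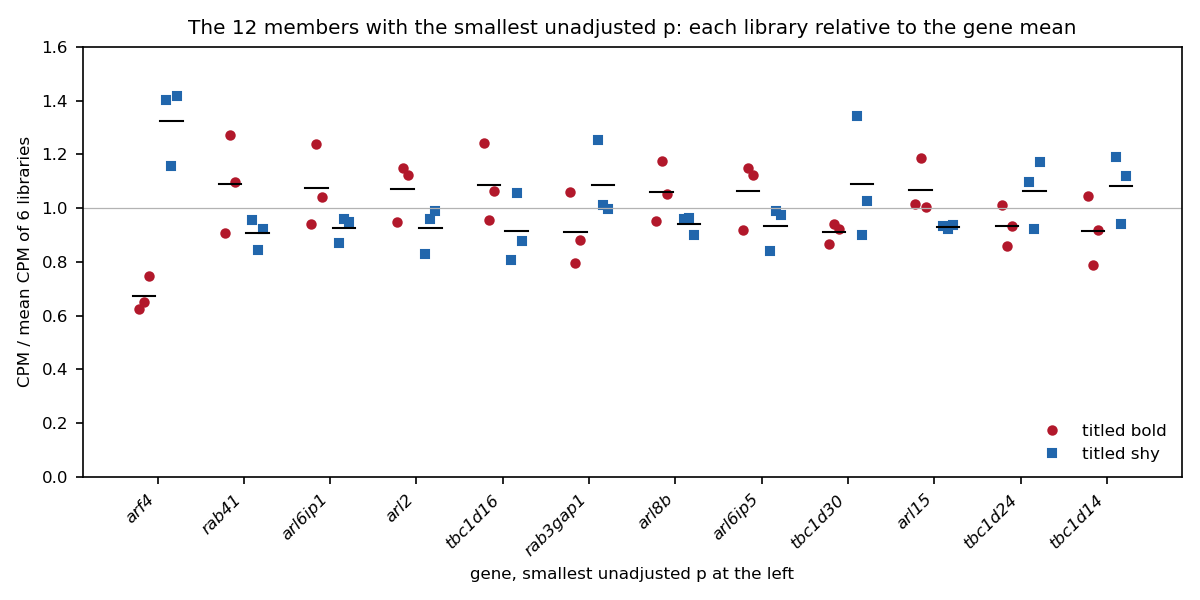
For the 12 genes ranked first by unadjusted p (x axis, smallest at the left), each library's CPM over the gene's mean of 6 libraries (y axis), titled bold (circles) left of titled shy (squares), with bars for group means. The groups overlap in 10 of the 12 genes, all but arf4 and arl15.

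**Figure D4:**
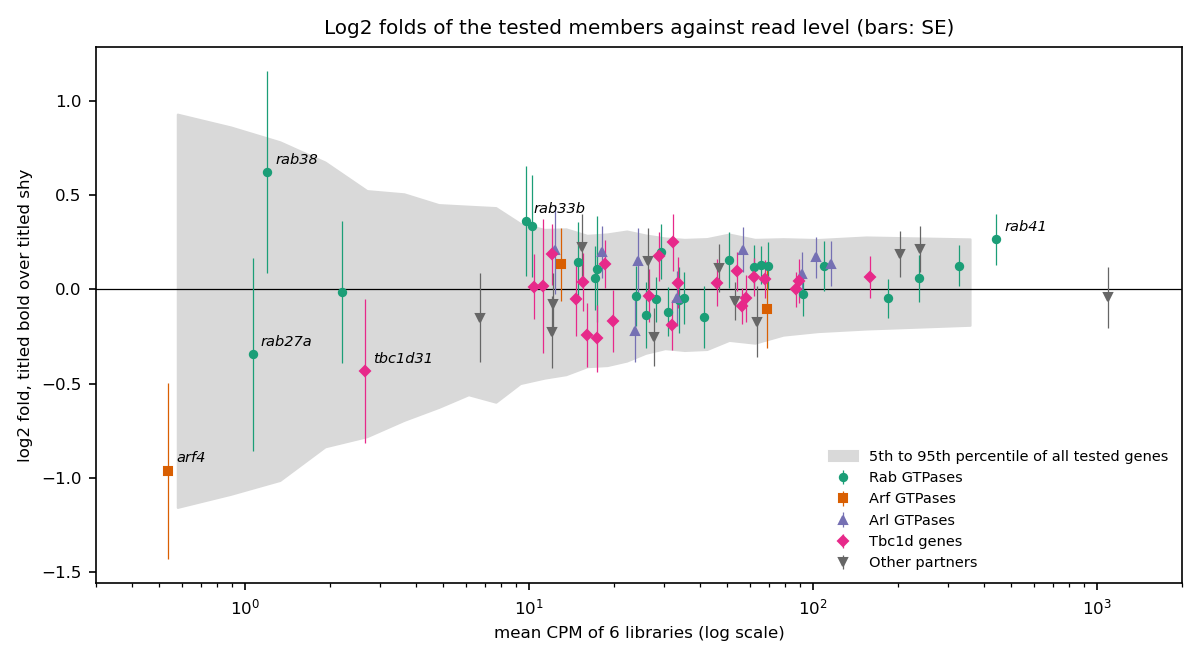
Log2 fold of titled bold over titled shy (y axis, bars are SEs) against mean CPM of 6 libraries (x axis, log scale) for the 74 tested genes by role. The grey band holds the 5th to 95th percentile of all tested genes at that level, and the SEs widen toward low counts, where arf4 and rab38 lie.

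Titled bold 1 decided how many genes passed the unadjusted threshold. Without it, 8 of the 74 genes (10.8%) passed, against 12% of all genes tested in the same fit, and 0 were called after edgeR's adjustment. Higher in the bold-titled libraries that were left were arl2, arl6ip1, arl6ip5, arl8b, rab41 and rab9a, and lower were arl9 and rab11fip3. The largest of these 8 folds was 0.40 ± 0.12 for rab41 on the log2 scale, and the smallest edgeR adjusted p among the 74 genes was 0.378. Without any 1 of the other 5 libraries the count was 0, against between 2.69% and 3.11% of all genes.

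Of the 46 tested relatives that RefSeq names, 1 (2.17%) was at an unadjusted p under 0.05, beside 3.49% of all genes, and 0 were called by edgeR. That gene was rab5ab, a Rab5 of early endosomes, with 143, 185 and 156 CPM in bold-titled libraries and 132, 135 and 133 CPM in shy-titled libraries. The groups did not overlap, and the log2 fold was 0.27 ± 0.11 (edgeR adjusted p = 0.955). The late endosome gene rab7a had 98.6, 83.2 and 97.4 CPM in bold-titled libraries and 104, 107 and 108 CPM in shy-titled libraries, a log2 fold of -0.19 ± 0.10. Rab27b, a secretory Rab, had 84.8, 98.4 and 85.4 CPM in bold-titled libraries and 76.5, 79.6 and 74.9 CPM in shy-titled libraries, a log2 fold of 0.22 ± 0.10. The groups did not overlap for rab7a or rab27b either, each with an edgeR adjusted p of 0.955. Titled bold 2 was the highest library for rab5ab and rab27b and the lowest for rab7a. Folds without that library are not given for these relatives.

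The recycling gene rab11a had 206, 268 and 248 CPM in bold-titled libraries and 211, 223 and 188 CPM in shy-titled libraries, and its groups overlapped. Rab6ba, a Golgi Rab, had 268, 348 and 290 CPM in bold-titled libraries and 289, 248 and 235 CPM in shy-titled libraries. Of the 46 relatives, 29 (63%) had a log2 fold above 0 and 17 below, against 48.3% above 0 over all genes tested. Their median was 0.06, against -0.01 over all genes, and their folds ran from -0.65 for arl4ab to 0.69 for rab3db. The median read level was 22.6 CPM for the relatives and 16.1 CPM over all genes, so the comparison is not at a like level. Groups did not overlap in 6 (13%), 4 higher and 2 lower in bold-titled libraries, beside the 9.53% of all genes.

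Other genes of the pathway, from lists of GDI and prenylation genes, exchange factors, GTPase-activating proteins, effectors and coat genes, gave 184 tested genes. Of these, 0 were called by edgeR or DESeq2, and 5 (2.72%) had an unadjusted p under 0.05, 1 higher and 4 lower in bold-titled libraries, beside 3.49% of all genes. Their median log2 fold was 0.00. Groups did not overlap in 17 of the 184 (9.24%), 6 higher and 11 lower in bold-titled libraries, beside 9.53% of all genes. The exchange factor lists for Rabs, with 48 tested genes, and for Arfs, with 17, held 0 of the 5, as did the 7 GDI, REP and prenylation genes. The 27 Arf GTPase-activating protein genes held 1, the 11 other Rab GTPase-activating protein genes 1, the 49 Rab effector genes 1 and the 25 Arf and Arl effector and coat genes 2.

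Git1, for a scaffold with Arf GTPase-activating function at synapses and adhesions, had 38.9, 20.1 and 34.3 CPM in bold-titled libraries and 54.4, 41.6 and 50.8 CPM in shy-titled libraries. Its log2 fold was -0.65 ± 0.23 and its edgeR adjusted p 0.955. Arcn1, for the delta subunit of the COPI coat, had 38.3, 29.97 and 41.2 CPM in bold-titled libraries and 45.6, 48.2 and 45.1 CPM in shy-titled libraries, a log2 fold of -0.34 ± 0.14. Borcs5, for a subunit of the complex that brings Arl8 to lysosomes, had 29.8, 32.003 and 26.02 CPM in bold-titled libraries and 21.9, 24.9 and 24.1 CPM in shy-titled libraries, a log2 fold of 0.31 ± 0.13. In these 3 genes the groups did not overlap, and each had an edgeR adjusted p of 0.955.

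The other pair of genes with an unadjusted p under 0.05 was mlpha and rabgap1l. Mlpha, which RefSeq names after the Rab27a effector melanophilin, had 9.13, 7.49 and 10.97 CPM in bold-titled libraries and 11.7, 12.9 and 15.6 CPM in shy-titled libraries, a log2 fold of -0.54 ± 0.21. Rabgap1l, for a TBC-domain protein, had 61.5, 35.7 and 47.2 CPM in bold-titled libraries and 65.8, 69.0 and 59.6 CPM in shy-titled libraries, a log2 fold of -0.43 ± 0.18. The groups did not overlap for mlpha and overlapped for rabgap1l. Titled bold 2 was the lowest library for git1, arcn1, mlpha and rabgap1l and the highest for borcs5.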

How the data were processed

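Per the labels' protocols the libraries were stranded mRNA libraries of hindbrain RNA, and the authors deposited raw read counts for 24395 genes, 1 table for each library. Trimmomatic 0.30, TopHat2 2.0.11 and, as the counter, HTSeq 0.11.1 appear in the submitters' processing notes. For genome build, annotation and counting mode, nothing is given in the sources used here, so no coordinates are printed, and reads of near-identical paralogs (arf, rab8, rab33 and the LOC duplicates) may be split in an unknown way. RefSeq (ASM2471397v2) served only for names and named 5666 of 14730 LOC numbers.

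filterByExpr kept 19755 genes. After TMM scaling, edgeR's quasi-likelihood test (two-sided, robust) was run on all 6 libraries, and a call is an adjusted p (Benjamini-Hochberg) under 0.05. An SE is the log2 fold divided by the root of the F statistic. The alternatives were other scalings and filters, DESeq2, limma-voom, a replicate block, leaving out each library, and other member sets. The edgeR step was tested on simulated data. The members and lists were chosen with earlier results of these data known. Named are the 4 genes with the most reads per role, the 12 with the smallest p, the 4 most and 4 least variable, textbook members and pairs at least 10 times apart. Members named beyond this rule, the LOC relatives and the pathway genes were named after their values were seen. Tools were edgeR 4.0.16, DESeq2 1.42.0 and limma 3.58.1 in R 4.3.3, and matplotlib 3.10.9 in Python 3.11.15.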

Additional observations from a re-analysis of the deposited data

How the results depend on the processing

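The log2 folds of the 12 genes with the smallest p were recomputed under 15 alternatives, which gave 178 values. All 178 kept their direction, though several moved by over 1.5 times with 1 library left out, and none passed an adjusted p under 0.05. The 12 genes were picked by p from these same libraries, so a kept direction was partly built in and is no independent check. Over all genes 0 were called in every setting but DESeq2, which called 12, none a member. Members called stayed at 0 in every setting. Members at an unadjusted p under 0.05 numbered 0 to 8 with 1 library left out, 8 only without titled bold 1, and 1 with the LOC relatives. The count of members without overlap was 4 of 74 (5.41%), beside 9.53% of all genes. It was 10 of 120 (8.33%) with the LOC relatives and 2 of 38 (5.26%) for GTPases only. With library totals only it was 7, and the share over all genes in that setting is not given. With 1 library left out, which makes a lack of overlap easier, it was 6 to 30. Over all genes the share was then 16.5% to 31.7%, with the 31.7% and the 30 both without titled bold 1. The median log2 fold of members was 0.04, 0.11 for GTPases only, and between -0.003 (without titled bold 2) and 0.08 with 1 library left out. Over the GTPases alone, an alternative chosen after seeing the data, it was 0.11 with all libraries, 0.00025 without titled bold 2 and up to 0.17 without titled bold 1. The summed CPM of Tbc1d genes, titled bold minus titled shy, was 14.9, but -5.94 with library totals only, and 13.9 to 33.1 with 1 library left out. The same difference ran from 38.1 without titled bold 2 to 269 without titled bold 1 for Rab GTPases and from 18.4 to 62.9 for Arl GTPases. It changed sign with 1 library left out for other partners, between -76.8 and 166, and for Arf GTPases, between -13.5 and 5.24, and with library totals only it was -19.7 for other partners, against 20.98.

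With the replicate block, the counts of members called and of members at an unadjusted p under 0.05 were both 0, and over all genes 1160 had an unadjusted p under 0.05, against 690 without it. The pairing correlations of libraries with the same number were 0.316, 0.136 and 0.080, not all over 0.1, and 5 of 6 libraries correlated best with their own number, a hint from the data and not the design, so the numbers were not used as pairs. Fewer than 150 reads behind rab27a, rab38 and arf4 limit what their values can show.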
